A study of Mus musculus with 2 samples.

Results

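The genes described here encode 36 chromatin remodeler subunits: 25 subunits of the BAF (SWI/SNF) complexes, 2 ISWI ATPases and the 9 CHD helicases Chd1 to Chd9. They were chosen by name and matched through their Ensembl identifiers, and all 36 were found among the 19720 genes of the deposited table. The 2 groups are mouse embryonic forebrain with conditional knockout of the histone variant H2A.Z (H2AZcKO) and forebrain carrying floxed H2A.Z alleles (H2AZfl/fl), which serves as the control and is titled WT. Both are on the C57BL/6 background and share the brain region, labelled telencephalic with cerebral cortex named in the extraction protocol. The age is embryonic day 16 in the titles but day 12 in the development stage field. Neither the Cre driver nor the cells in which it acts are stated in the sources used here. Triplicates are mentioned in the design text, whereas the table has 1 count column per genotype, so every comparison sets 1 knockout library against 1 control library, with no replicate check and no p-value. Whether animals were pooled is not stated in the sources used here.

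BAF complexes are ATP-driven machines that slide or eject nucleosomes, and they are assembled from interchangeable subunits around a single ATPase, Smarca4 (BRG1) or Smarca2 (BRM). In the developing mouse brain, neural progenitors carry Actl6a, Phf10 and Ss18, and neurons leaving the cell cycle replace them with Actl6b, Dpf1 or Dpf3, and Ss18l1. This exchange from progenitor BAF to neuronal BAF is one of the best known cases of remodeler switching. CHD proteins are remodelers with paired chromodomains, and Chd3, Chd4 and Chd5 are alternative ATPases of the NuRD complex, which joins nucleosome remodeling to histone deacetylation.

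The knockout library had 9028523 reads in listed genes and the control library 8474545. A gene counts as measured from 20 reads upward, summed over the libraries, and 14366 genes did. The targeted gene H2afz had 535 reads in the knockout library and 1152 in the control library, 2.24-fold lower in the knockout. Its paralog H2afv had 1095 reads in the knockout library and 1009 in the control library. Which exons are floxed is not stated in the sources used here, and reads from exons outside the deleted part may remain in the H2afz count. Markers of other cell types and regions differed between the libraries, and with 1 library per genotype the dissection and the knockout cannot be told apart as their source. Summed CPM (counts divided by the scaled library size) of 10 choroid plexus markers were 13.6 in the knockout library and 796 in the control. Ttr alone gave 1.35 and 702 of these in the same order, and all 8 markers measured were at least 1.5-fold lower in the knockout. Summed CPM of 10 meningeal and fibroblast markers were 35.8 in the knockout and 275 in the control. Those of 12 diencephalic and midbrain markers were 249.7 and 93.4 in the same order, with Shox2 at 0 in the control. Those of 14 ventral telencephalic markers were 1271 and 832. Sums were closer for 10 dorsal cortex markers, at 3160 CPM in the knockout library and 3264 CPM in the control library. They were 304 and 325 CPM in the same order for 10 endothelial and pericyte markers, and 40.5 and 44.9 CPM for 8 microglial markers. Single markers within these lists still differed. Beyond counting error with TMM scaling (below), 2 dorsal cortex markers were higher in the knockout and 5 lower, with Neurog2 and Eomes lowest, both at a log2 ratio of -0.25. Of the endothelial and pericyte markers 1 was higher and 4 lower, and of 7 microglial markers measured 0 were higher and 2 lower.

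The remodeler genes were close to level between the genotypes, as were most genes with similar read numbers. None of the 36 was at least 1.5-fold apart after scaling by the trimmed mean of M values (TMM), against 3.52% of all measured genes at least 1.5-fold higher in the knockout and 5.43% at least 1.5-fold lower. Within the read range of the remodeler genes, 263 to 15208 reads, these shares were 0.815% and 0.576% of 9197 genes. Counting error was taken from the exact 95% binomial (Clopper-Pearson) interval of the knockout's share of a gene's reads. It takes no account of variation between animals, dissections or library preparations. That interval lay wholly inside 1.5-fold for all 36 genes, against 64.4% of all measured genes and 92.4% of genes within that read range. The most distant interval bound belonged to Dpf3, the gene with the fewest reads, at 1.45-fold.

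**Figure D1:**
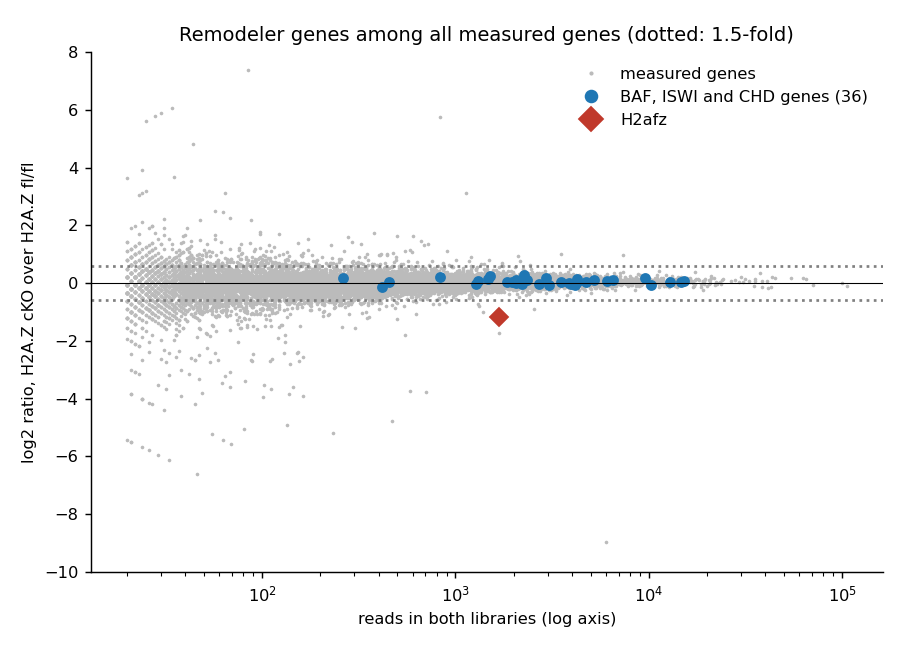
Log2 ratio of knockout over control against the reads in both libraries, for the measured genes (grey), the 36 remodeler genes (blue) and H2afz (red diamond), 1 library per genotype. Dotted lines mark 1.5-fold. The 36 genes lie between -0.13 and 0.28 on the log2 axis, inside the dotted lines, and H2afz lies at -1.16.

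Small differences went beyond counting error for 11 of the 36 genes, against 21.8% of all measured genes and 25.3% of those in the same read range. Of these, 10 were higher in the knockout library and 1, Chd4, was lower. Among all measured genes 12.5% were higher and 9.3% lower beyond counting error, and within the same read range 16.3% were higher and 8.96% lower. The 10 higher genes were 27.8% of the set and the 1 lower gene 2.78%. The split depends on the scaling: it was 7 higher and 2 lower when scaled by library total, and 15 higher and 0 lower with DESeq2 size factors. Library totals removed Bcl7a, Smarca1 and Smarcd1 and added Smarca2 as lower, and DESeq2 size factors added Dpf1, Smarcc1, Smarcc2, Smarcd3 and Ss18l1. The genes higher beyond counting error under each of these scalings were Arid1a, Arid1b, Arid2, Bcl7c, Chd2, Chd3 and Chd5. The median log2 ratio was 0.05 over the 36 genes, 0.0018 over all measured genes and 0.02 over the genes of the same read range. With library totals the median was 0.01 over the 36 genes and -0.02 over the genes of the same read range. Of the 36 genes 27 (75%) were above 0 with TMM scaling and 19 (52.8%) with library totals, against 54.7% and 44.6% of the genes of the same read range.

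**Figure D2:**
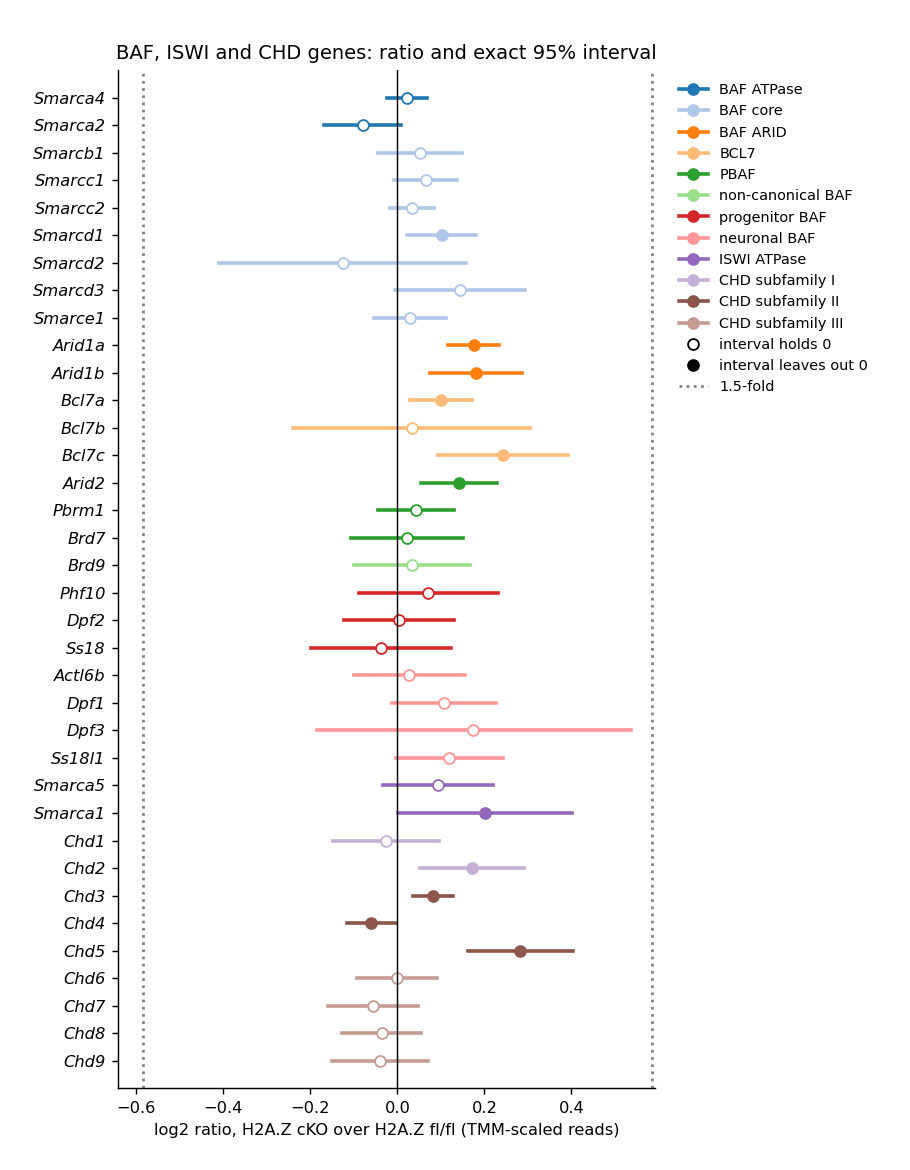
Log2 ratio of knockout over control for each of the 36 genes with its exact 95% interval, coloured by role. Filled points are genes whose interval leaves out 0, and dotted lines mark 1.5-fold. All intervals lie between the dotted lines, with Chd5 furthest to the right at 0.28.

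The exchanged BAF subunits, on which the switch from progenitors to neurons turns, did not differ beyond counting error on either side with TMM scaling, and 2 of the neuronal subunits did with DESeq2 size factors. Actl6b encodes the actin-related subunit of neuronal BAF and lies on chromosome 5 from 137553517 to 137569582 (GRCm38). Reads numbered 1043 in the knockout library and 984 in the control library, a log2 ratio of 0.03 (95% interval -0.0996 to 0.15). Dpf1, which encodes a double PHD finger subunit, had 1232 reads in the knockout and 1100 in the control, a log2 ratio of 0.11 (-0.01 to 0.23). Its relative Dpf3 had 142 and 121 reads in the same order, at 0.17 (-0.19 to 0.54). Ss18l1, the calcium-responsive transactivator CREST, had 1157 reads in the knockout and 1024 in the control, at 0.12 (-0.0029 to 0.24). With TMM scaling all 4 neuronal subunits had more scaled reads in the knockout library, and each interval held 0. With library totals Actl6b turned to -0.0074, and with DESeq2 size factors the intervals of Dpf1 (0.01 to 0.25) and Ss18l1 (0.02 to 0.27) left out 0.

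Progenitor subunits had log2 ratios from -0.06 to 0.07. Phf10, a PHD finger subunit also present in the PBAF complex, had 683 reads in the knockout library and 625 in the control library, a log2 ratio of 0.07 (-0.09 to 0.23). Dpf2, the broadly expressed relative of Dpf1 and Dpf3, had 1054 reads in the knockout and 1011 in the control, at 0.0035 (-0.12 to 0.13). Ss18, the partner of Ss18l1, had 642 and 634 reads in the same order, at -0.04 (-0.199 to 0.12). Actl6a, the partner of Actl6b and also a subunit of other remodelers, had 574 reads in the knockout library and 577 in the control library, at -0.06 (-0.23 to 0.11). Each of these 4 intervals held 0. Exons of Actl6a share 11.6% of their length with Mrpl47 and those of Phf10 share 9.56% with 1600012H06Rik, both on the other strand, and the strand setting is not stated in the sources used here. The median log2 ratio was 0.11 over the 4 neuronal subunits and 0.0035 over Phf10, Dpf2 and Ss18, with Actl6a left out.

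Actl6a is known in the mouse as a target of miR-9-3p, also written miR-9*, and of miR-124, which together repress it as neurons form. The mature miR-9-3p (RefSeq, GRCm38.p6) is shown with its seed, bases 2 to 8, in capitals, above a 30-base stretch of the Actl6a 3′ UTR with the match to that seed in capitals (GENCODE M21, plus strand, chr3:32726628-32726657).
mmu-miR-9-3p: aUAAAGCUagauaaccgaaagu
Actl6a: ctcaacgtctgtAGCTTTAgtacactcagg
The 371-base Actl6a 3′ UTR held 1 such match, AGCTTTA read on the transcript strand. Of 15647 genes with a 3′ UTR at least this long, 441 (2.82%) held those letters in the first 371 bases. The miRNA itself was not measured by these libraries, and Actl6a transcript levels were level between them within counting error.

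Reads of a neuronal subunit as a share of the reads of its position give a comparison that no scaling of the libraries can move. At the actin-related (BAF53) position, Actl6b took 64.5% of reads in the knockout library (exact binomial 95% interval 62.1% to 66.8%) and 63.0% in the control library (60.6% to 65.4%). The ratio of the odds, knockout over control, was 1.07 (exact conditional 95% interval 0.919 to 1.23). At the PHD finger (BAF45) position, Phf10 and the broadly expressed Dpf2 were both counted as progenitor subunits. There Dpf1 and Dpf3 took 44.2% of reads in the knockout (42.4% to 45.9%) and 42.7% in the control (40.9% to 44.6%). The odds ratio was 1.06 (0.955 to 1.18). With Dpf2 left out the neuronal share is larger in both libraries, and the log2 odds ratio was 0.04 (-0.15 to 0.24). At the SS18 position, Ss18l1 took 64.3% in the knockout (62.1% to 66.5%) and 61.8% in the control (59.4% to 64.1%), an odds ratio of 1.12 (0.969 to 1.28). The neuronal share was higher in the knockout library by 1.43 to 2.55 percentage points at the 3 positions, and each interval held 1.

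Over the 3 positions together, neuronal subunits took 54.8% of 3574 plus 2953 reads in the knockout library and 53.1% of 3229 plus 2847 reads in the control library. The odds ratio was 1.07 (0.994 to 1.15), so a shift in the odds towards neuronal BAF larger than 1.15-fold lay outside the counting interval. General neuronal genes were higher in the knockout library over the same comparison. Of 18 pan-neuronal markers measured, 16 were higher beyond counting error and 0 lower, against 12.5% and 9.3% of all measured genes. With library totals some of these 16 intervals hold 0. The median log2 ratio was 0.19 and 1 marker lay below 0. Summed levels were 12070 CPM in the knockout and 10653 CPM in the control. Nefl, which encodes the light neurofilament chain and lay furthest from 0, had 379 reads in the knockout and 168 in the control. Of 17 radial glia and cell cycle markers, 3 were higher and 4 lower beyond counting error, with a median of -0.06 and summed levels of 3200.5 CPM in the knockout and 3247 CPM in the control. Their part in the subunit shares was not tested. In bulk tissue, fewer cells of a type and less RNA per cell cannot be told apart.

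**Figure D3:**
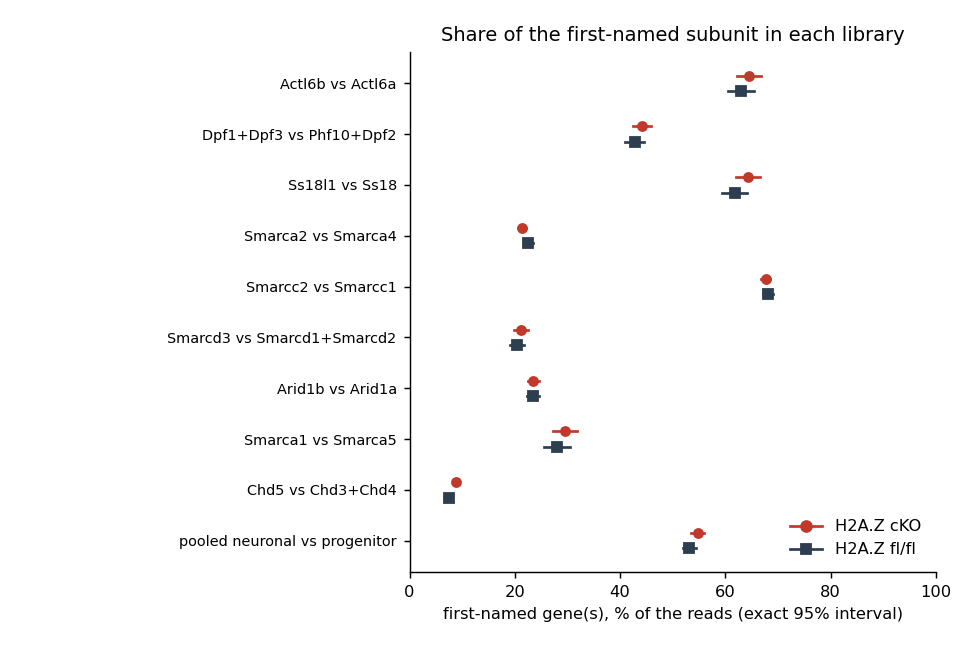
Reads of the first-named gene or genes as a percentage of the reads of the pair, in the knockout library (red circles) and the control library (dark squares), with exact 95% binomial intervals. The neuronal BAF shares in the upper rows differ by at most 2.55 percentage points, and the Chd5 share is 8.76% in the knockout and 7.44% in the control.

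Levels per length placed the neuronal forms above their partners at the BAF53 and SS18 positions in both libraries. At the BAF45 position the order depended on whether Dpf2 was counted. RPKM values were computed from TMM-scaled reads per kilobase of the union of annotated exons, so that genes could be set side by side. The isoforms present were not measured, so ratios between genes depend on these lengths, such as 9419 bases for Ss18 and 4343 for Ss18l1. The level of Actl6b was 27.4 RPKM in the knockout library and 26.9 RPKM in the control library, against 16.6 and 17.3 RPKM for Actl6a in the same order. Ss18l1 stood at 29.9 RPKM in the knockout and 27.5 RPKM in the control, 3.91 and 3.50 times the level of Ss18. Dpf1 and Dpf3 together were 0.873 times the level of Phf10 and Dpf2 together in the knockout and 0.825 times in the control. Dpf1 alone stood at 25.7 RPKM in the knockout and 23.9 RPKM in the control. Phf10 alone was lower, at 15.6 and 14.8 RPKM in the same order. Dpf3, at 3.77 RPKM in the knockout and 3.34 RPKM in the control, was the lowest of the 36 genes in each library.

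The ATPase Smarca4 and the scaffold subunit Smarcc2 had the highest levels of the set in both libraries, and with TMM scaling neither differed beyond counting error, whereas with DESeq2 size factors Smarcc2 was higher in the knockout. Smarca4 had 7571 reads in the knockout library and 7168 in the control library, a log2 ratio of 0.02 (-0.02 to 0.07), and a level of 131 RPKM in the knockout and 129 RPKM in the control. Smarca2, the alternative ATPase, had 2055 reads in the knockout and 2088 in the control, at -0.08 (-0.17 to 0.0091). Smarca2 took 21.3% of the reads of this pair in the knockout and 22.6% in the control, an odds ratio of 0.932 (0.869 to 0.999). That interval leaves out 1 by a narrow margin, as 1 of 2 among the 9 positions examined. Smarcc2 (BAF170), a scaffold subunit, had the highest level of all 36 genes at 134 RPKM in the knockout and 131 RPKM in the control, with a log2 ratio of 0.03 (-0.02 to 0.08). Its partner Smarcc1 (BAF155) was at 0.06 (-0.0079 to 0.14), and Smarcc2 took 67.6% of their reads in the knockout and 68.1% in the control.

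**Figure D4:**
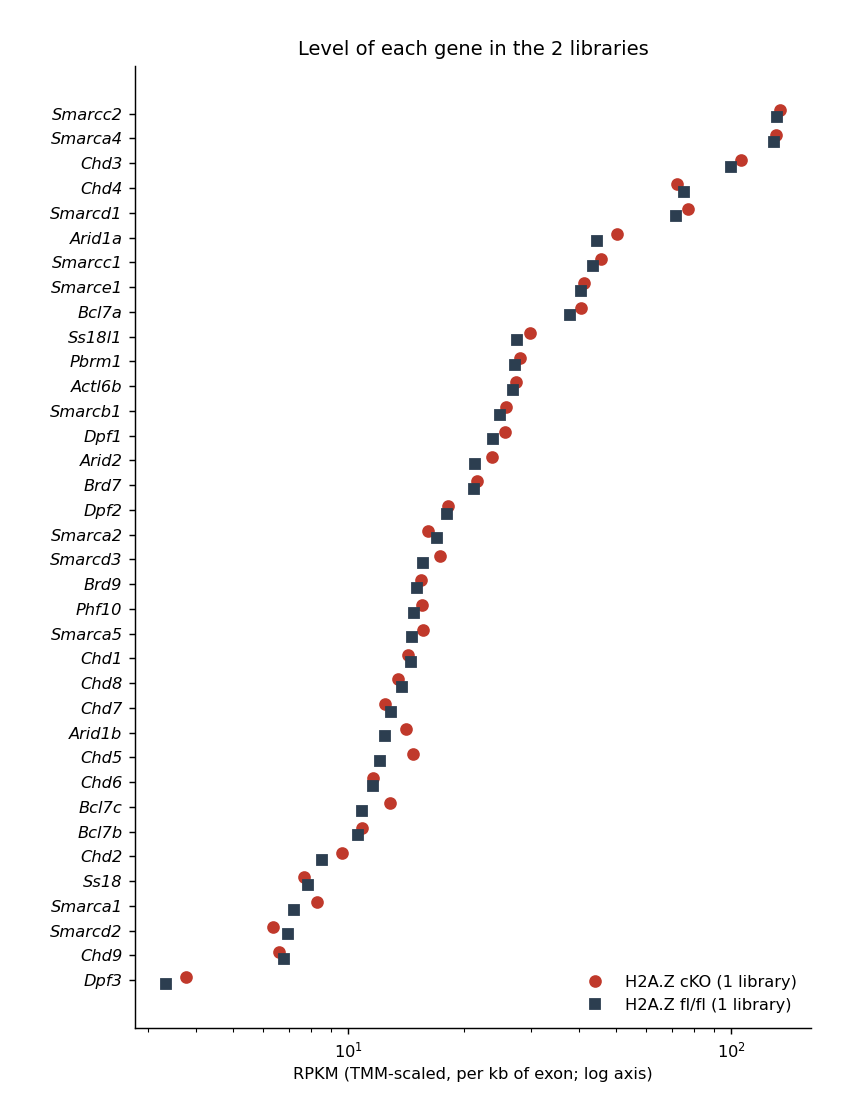
Level of each of the 36 genes in RPKM on a log axis, in the knockout library (red circles) and the control library (dark squares), ordered by the control. Smarcc2 and Smarca4 lie above 100 RPKM in both libraries and Dpf3 lies lowest, at 3.77 RPKM in the knockout and 3.34 RPKM in the control.

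The remaining core subunits had log2 ratios from -0.13 to 0.14. Smarcb1, the SNF5 subunit, had 1823 reads in the knockout library and 1691 in the control library, at 0.05 (-0.04 to 0.15). Smarce1 (BAF57) had 2443 reads in the knockout and 2304 in the control, at 0.03 (-0.05 to 0.11). Within the BAF60 group, Smarcd1 was the exception that went beyond counting error, with 2758 reads in the knockout and 2471 in the control, at 0.10 (0.02 to 0.18). This was 7.32% higher, and with library totals the interval held 0. Smarcd2 had 204 and 214 reads in the same order, at -0.13 (-0.41 to 0.16), and Smarcd3 had 792 and 689 reads, at 0.14 (-0.0047 to 0.29). Exons of Smarcd3 overlap those of Chpf2 on the other strand over 48.2% of their length, so, without a stated strand setting, reads of the 2 genes may not be separate.

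The 3 ARID subunits, which are mutually exclusive and set the type of BAF complex, were all slightly higher in the knockout library. Arid1a (chromosome 4, 133679008 to 133756769) had 5158 reads in the knockout and 4393 in the control. Its log2 ratio was 0.18 (0.12 to 0.23), or 12.9% higher (8.43% to 17.6%). Arid1b, the alternative to Arid1a in canonical BAF, had 1585 reads in the knockout and 1344 in the control, at 0.18 (0.08 to 0.29). Arid2, which takes the ARID position in PBAF, had 2264 reads in the knockout and 1973 in the control, at 0.14 (0.05 to 0.23). These 3 genes differed by similar amounts, and the balance between Arid1b and Arid1a was level: Arid1b took 23.5% of their reads in the knockout and 23.4% in the control, an odds ratio of 1.004 (0.924 to 1.09).

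Other PBAF and non-canonical BAF subunits were level. Pbrm1, the polybromo subunit that marks PBAF, had 2210 reads in the knockout library and 2064 in the control library, a log2 ratio of 0.04 (-0.05 to 0.13). Brd7, a bromodomain subunit of PBAF, had 1013 reads in the knockout and 959 in the control, at 0.02 (-0.11 to 0.15). Brd9, the bromodomain subunit of non-canonical BAF, had 958 and 900 reads in the same order, at 0.03 (-0.0992 to 0.17). Of the BCL7 accessory subunits, Bcl7c had 828 reads in the knockout and 673 in the control and was 18.3% higher (6.73% to 31.2%). Bcl7a, the most abundant of them, had 3431 reads in the knockout and 3078 in the control, 7.18% higher (2.07% to 12.6%), and with library totals its interval held 0. Bcl7b, with 233 and 219 reads in the same order, was at 0.03 (-0.24 to 0.31) on the log2 scale.

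Among the CHD helicases, the NuRD ATPases differed from each other. Chd5, the NuRD ATPase of neurons, spans 152338651 to 152390194 on chromosome 4 and had the highest ratio of the 36 genes. It had 1260 reads in the knockout library and 996 in the control library, a log2 ratio of 0.28 (0.16 to 0.40), or 21.6% higher (11.9% to 32.3%). Chd4, the main NuRD ATPase of dividing progenitors, spans 125095981 to 125130591 on chromosome 6. It had 5150 reads in the knockout and 5161 in the control, at -0.06 (-0.12 to -0.0036), a change of -4.05%, and with DESeq2 size factors its interval held 0. Chd3, with 7969 reads in the knockout and 7239 in the control, was at 0.08 (0.04 to 0.13).

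The balance of these 3 ATPases does not depend on scaling. Chd5 took 8.76% of their reads in the knockout library (8.31% to 9.24%) and 7.44% in the control library (6.996% to 7.89%), intervals that do not overlap. The odds ratio was 1.20 (1.10 to 1.31), and against Chd4 alone the log2 odds ratio was 0.34 (0.21 to 0.48). Per length, Chd5 remained the lowest of the 3, at 14.7 RPKM in the knockout and 12.1 RPKM in the control, beside 71.997 and 75.03 RPKM for Chd4 and 105.8 and 99.96 RPKM for Chd3. In the authors' deposited table, in which positive log2 values are higher in the control, Chd5 had a log2 ratio of -0.25 with an adjusted p-value of 0.0015 and Chd4 one of 0.09 with 0.017. Arid1a, at -0.14 with 0.0001, was the third gene of the set with an adjusted p-value below 0.05 in the authors' deposited table, where 3.36% of listed genes met that threshold with higher values in the knockout and 4.07% with lower. The deposited log2 ratios match in size those scaled by library total, 0.25 for Chd5 and -0.09 for Chd4, and not those scaled with TMM. The test behind the p-values is not stated in the sources used here, nor whether it takes account of variation between animals. They are no replicate check of the values above. As above, pan-neuronal markers were also higher in the knockout library, and their part in the Chd5 share was not tested.

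H2A.Z is known to flank transcription start sites, so the promoters of the 2 NuRD ATPase genes that lay furthest apart are given as context. Both are from RefSeq on GRCm38.p6, plus strand, from 250 bases before to 50 bases after the start, at chr4:152338401-152338700 for Chd5 and chr6:125095731-125096030 for Chd4, with every CG in capitals.
Chd5: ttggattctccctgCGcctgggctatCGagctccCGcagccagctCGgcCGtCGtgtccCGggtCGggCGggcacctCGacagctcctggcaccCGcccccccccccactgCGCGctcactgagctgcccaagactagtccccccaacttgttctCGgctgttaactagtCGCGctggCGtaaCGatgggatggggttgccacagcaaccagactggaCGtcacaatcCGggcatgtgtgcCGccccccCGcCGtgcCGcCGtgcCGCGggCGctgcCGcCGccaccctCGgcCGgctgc
Chd4: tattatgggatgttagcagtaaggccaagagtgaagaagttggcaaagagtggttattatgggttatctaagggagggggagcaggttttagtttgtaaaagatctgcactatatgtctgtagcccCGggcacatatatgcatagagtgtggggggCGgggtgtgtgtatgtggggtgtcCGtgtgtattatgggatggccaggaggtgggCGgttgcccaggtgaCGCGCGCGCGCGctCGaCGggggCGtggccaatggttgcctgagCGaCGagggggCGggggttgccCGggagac
The Chd5 window held 32 CG and the Chd4 window 17, counted on the strand shown. These 2 windows were chosen by the ratios of their genes, and a link between CG number and ratio was not tested. A median of 21 was found over 10710 measured genes with a promoter entry, taking the first entry per gene. Over the 28 remodeler genes with an entry, the median was 31.5 and the range 4 to 62, and 21 of them lay above the median of the measured genes. Every other promoter was counted in a window of the same 300 bases.

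The remaining CHD genes were level, apart from Chd2. Chd2, a subfamily I helicase mutated in human epilepsies, had 1226 reads in the knockout library and 1047 in the control library, a log2 ratio of 0.17 (0.05 to 0.29). A processed transcript on the same strand shares 18.4% of its exonic length and was itself counted at 299 reads in the knockout and 239 in the control. Chd1, which binds methylated histone H3 and acts in transcription elongation, had 1113 reads in the knockout and 1089 in the control, at -0.03 (-0.15 to 0.097). The deposited table gives Chd1 a span ending at 17394898 on chromosome 17, whereas the GENCODE M21 model ends at 15772610, so its count may cover more than the gene.

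Subfamily III, which holds developmental regulators including Chd7 and Chd8, was the most level CHD group. Chd7, mutated in human CHARGE syndrome, had 1529 reads in each library, a log2 ratio of -0.06 (-0.16 to 0.05) after scaling. Chd8, linked to human autism, had 1987 reads in the knockout library and 1959 in the control library, at -0.04 (-0.13 to 0.05). Chd6 had 1974 and 1899 reads in the same order, at -0.00065 (-0.09 to 0.09), and Chd9 had 1364 and 1348 reads, at -0.04 (-0.15 to 0.07). All 4 lay at or below 0, each interval held 0, and Chd6 lay above 0 with DESeq2 size factors.

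The ISWI ATPases space nucleosomes into regular arrays, and Smarca5 (SNF2H) is the form of dividing cells. It had 1084 reads in the knockout library and 977 in the control library, a log2 ratio of 0.09 (-0.03 to 0.22). Smarca1 (SNF2L), the form enriched in neurons, had 453 reads in the knockout and 379 in the control, at 0.20 (0.00076 to 0.40). Its interval just left out 0 and held 0 with library totals. Smarca1 took 29.5% of their reads in the knockout and 27.9% in the control, an odds ratio of 1.08 (0.914 to 1.27).

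Partner genes of these complexes differed by small amounts. Of 6 BAF subunits outside the set, the zinc finger factor gene Bcl11b and the actin gene Actb were higher beyond counting error, at 0.09 (0.02 to 0.15) and 0.07 (0.04 to 0.10), and 0 were lower. Of 12 NuRD partners measured, 1 was higher and 1 lower beyond counting error, with a median log2 ratio of 0.0010. The higher was the deacetylase gene Hdac2, at 0.12 (0.05 to 0.19), and the lower the histone-binding gene Rbbp7, at -0.15 (-0.27 to -0.02). Of 9 ISWI partners, 3 were higher and 1 lower, with a median of 0.02. The higher ones were Rsf1 at 0.15 (0.04 to 0.26), a partner of Smarca5, and Baz1b and Bptf, both at 0.10. The lower one, Pole3, which encodes a histone-fold subunit of the CHRAC complex, had 448 reads in the knockout library and 557 in the control library, at -0.37 (-0.55 to -0.19). Of 13 other Snf2 family ATPases, 1 was higher and 2 lower, with a median of -0.04. The higher one, Hells, a remodeler needed for DNA methylation, was at 0.24 (0.06 to 0.42), and the lower ones were Shprh at -0.19 (-0.32 to -0.06) and Atrx at -0.07 (-0.13 to -0.0087). None of the genes on these lists was 1.5-fold apart. These calls, like those on the marker lists, use TMM scaling. With the shift to library totals, the intervals of Bcl11b, Baz1b and Bptf hold 0, and some other genes of these lists become lower. With the shift to DESeq2 size factors, those of Rbbp7 and Atrx hold 0.

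Across the 36 genes the order of levels was nearly the same in both libraries. Ranked by RPKM, 19 genes held the same rank and no gene moved by more than 4 places. The largest step was that of Chd5, at rank 23 in the knockout and rank 27 in the control. Together the 36 genes took 0.844% of reads in the knockout library and 0.832% in the control library. The log2 ratio was not ordered by exonic length (Spearman's rho -0.13 over the 36 genes, which share 2 libraries) or by level (rho -0.01).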

How the data were processed

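RNA sequencing libraries of embryonic mouse forebrain were compared, 1 per genotype. Trizol extraction and TruSeq library preparation from 2 ug RNA are given per the labels' protocols. Per the submitters' processing notes, Bowtie2 2.2.3, TopHat2 2.0.12 and HTSeq 0.6.0 were used, without stated roles, on mm9. Positions in the deposited table equalled GENCODE M21 (GRCm38) gene models for 78.8% of genes, so coordinates are given as GRCm38.

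The deposited counts are raw reads per gene, per the file headers. The authors also deposited CPM values, in which 0 is entered as 0.5 read, together with their fold (ratio of control to knockout), its log2, p-value and adjusted p-value columns, whose test is not stated in the sources used here. Those CPM were not used.

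Counts were scaled with TMM (edgeR 4.0.16, R 4.3.3). Log2 ratios used a prior of 0.5 read. Exact intervals were computed in scipy 1.17.1, and calculations were tested on simulated data. RPKM used the union of GENCODE M21 exons, also for genes whose positions differ from those models. Of the gene identifiers, 19616 matched a symbol. All 36 genes are named, with H2afz, H2afv, Actl6a and at most the 3 furthest measured genes of each other list. Baz1b, Bptf, Hells, Shprh and Atrx were named after their values were seen. The members and gene lists were chosen with earlier results of these data known, and the read-range background was added afterwards. A single count column per genotype allows no test between them. Alternatives were other scalings (library total, DESeq2 1.42.0 size factors, centring), read minimums, priors, fold limits, interval levels and subunit choices.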

Additional observations from a re-analysis of the deposited data

How the results depend on the processing

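The read minimums could not change any value of the set, since each of the 36 genes has over 100 reads in each library. Under the other alternatives, 226 of 229 recomputed values stayed within the counting interval of the main value or, for counts, within 1.5 times. The exceptions all concern the single gene lower beyond counting error: the count was 2 with library totals, where Smarca2 joined Chd4, 0 with DESeq2 size factors and 0 with 99% intervals. Counts of genes higher beyond counting error were 7 with library totals and 15 with DESeq2 size factors, against 10. Relative to TMM, library totals shift every log2 ratio by -0.03 and DESeq2 size factors by 0.02. Both shifts are too small to carry any of the 36 ratios out of its own interval, so those ratios could not have moved under them. The counts of 7 and 15 met the rule of 1.5 times although the genes called changed. Subunit shares do not depend on scaling, and leaving out Dpf2, Phf10, Chd3, Smarcd2 or a whole BAF position changed no call among them. Leaving out a replicate could not be done with 1 library per genotype. No paired analysis was possible because each genotype has a single library. Counting intervals do not cover variation between animals, so the small differences beyond counting error have no replicate check.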
